A study of Mus musculus with 30 samples.

Results

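The 9 genes described here encode the transforming growth factor-β (TGF-β) ligands *Tgfb1*, *Tgfb2* and *Tgfb3*, their receptors *Tgfbr1*, *Tgfbr2* and *Tgfbr3*, the latent TGF-β binding proteins *Ltbp1* and *Ltbp2*, and the activator thrombospondin-1, *Thbs1*. They were taken by symbol from the 55450 genes of the count table, and each of the 9 symbols had 1 gene. All 9 are described whatever their values, but the list was chosen with earlier results of these data known. They were followed in the livers of male mice on a diet rich in fat, cholesterol and fructose (HFCFD), which is used to model steatohepatitis, with 1 stranded poly(A) RNA-Seq library per mouse. The 30 mice formed 3 experiments of 5 control and 5 knockout mice each, 6 groups in all. In HFCFD2W the mice were fed for 2 weeks without tamoxifen, and *Cebpa* ΔHep mice, which lack the hepatocyte transcription factor CEBPA through a constitutive albumin promoter-driven Cre, were compared with *Cebpa* fl/fl mice. In HFCFD8W+T10D and HFCFD12W+T10W the knockouts were *Cebpa* ΔHep,ERT2 mice, in which the same promoter drives a Cre that acts only once tamoxifen is given. Tamoxifen covered the last 10 days in HFCFD8W+T10D, labelled with 8 weeks of diet, and the last 10 weeks in HFCFD12W+T10W, 22 weeks in all. The *Cebpa* fl/fl controls of all 3 experiments carried the floxed alleles without Cre, and those of the later experiments had the same tamoxifen label as their knockouts. The strains had been backcrossed to C57BL/6N, and the ages of the mice are not given in the sources used here.

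The series describes the 3 experiments as 3 batches, so batch, Cre line, time on diet and tamoxifen cannot be told apart between them. Library totals ran from 7996123 to 10257347 counts. Mean levels of *Cebpa* itself were 177 CPM (counts relative to a library's size, scaled for composition) in controls and 4.74 CPM in knockouts of HFCFD2W. They were 144 and 17.2 CPM in HFCFD8W+T10D and 114 and 21.3 CPM in HFCFD12W+T10W, and the genotypes never overlapped. *Alb* was the most abundant of 6 hepatocyte markers in every group. In HFCFD8W+T10D, control replicate 1 stood apart by its platelet markers, with a summed level of 59.9 CPM against 3.45 to 10.9 CPM in the other 4 controls. The *Thbs1* differences that rest on it, the calls lost without it and the monocyte and neutrophil sum are given with and without it.

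TGF-β ligands are secreted as latent complexes, in which the mature dimer stays bound to its own propeptide, and latent TGF-β binding proteins tether many of these complexes to the matrix. Thrombospondin-1, some αv integrins and proteases can release the active ligand, which binds the type II receptor *Tgfbr2*, and this in turn phosphorylates the type I receptor *Tgfbr1* so that SMAD proteins carry the signal to the nucleus. The type III receptor *Tgfbr3* (betaglycan) presents ligand, above all TGF-β2, to the signaling receptors. In liver fibrosis the pathway is known for driving hepatic stellate cells to become matrix-producing myofibroblasts.

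To show the regulatory DNA of 2 members called in HFCFD8W+T10D (*Tgfb1* and *Ltbp2*), of a ligand that was almost silent in controls (*Tgfb2*) and of the type I receptor, the bases upstream of 4 members are printed from RefSeq (GRCm38.p6, the build of the deposited coordinates, mm10), 5′ to 3′ on the strand of the gene. Windows were found for 6 of the 9 members (*Tgfb1*, *Tgfb2*, *Tgfbr1*, *Tgfbr2*, *Ltbp1* and *Ltbp2*). Capitals mark matches on either strand to 5 motifs (GC box, TATA box, SMAD, AP-1 and C/EBP, spelled out after the sequences), which did not overlap each other in these windows. The first 3 are the 250 bases before the transcription start, at chr7:25686752-25687001 (plus strand) for *Tgfb1*, chr1:186705990-186706239 (minus) for *Tgfb2* and chr4:47352972-47353221 (plus) for *Tgfbr1*. For *Ltbp2* the 209 bases at chr12:84876533-84876741 (minus) are shown, since the rest of the window lies inside the annotated gene.
Tgfb1: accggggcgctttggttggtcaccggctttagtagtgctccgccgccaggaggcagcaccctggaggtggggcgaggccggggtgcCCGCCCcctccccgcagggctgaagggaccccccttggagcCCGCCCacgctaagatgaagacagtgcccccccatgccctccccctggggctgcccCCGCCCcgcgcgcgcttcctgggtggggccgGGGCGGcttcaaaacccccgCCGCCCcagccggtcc
Tgfb2: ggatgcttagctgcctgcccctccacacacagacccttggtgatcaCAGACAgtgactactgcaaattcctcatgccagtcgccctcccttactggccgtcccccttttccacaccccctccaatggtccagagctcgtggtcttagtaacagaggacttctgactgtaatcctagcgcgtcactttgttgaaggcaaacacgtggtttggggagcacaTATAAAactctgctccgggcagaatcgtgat
Tgfbr1: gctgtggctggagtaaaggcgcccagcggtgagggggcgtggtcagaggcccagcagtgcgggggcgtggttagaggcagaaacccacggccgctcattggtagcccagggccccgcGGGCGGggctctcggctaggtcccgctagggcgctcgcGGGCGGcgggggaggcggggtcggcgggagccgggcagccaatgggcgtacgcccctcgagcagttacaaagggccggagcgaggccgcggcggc
Ltbp2: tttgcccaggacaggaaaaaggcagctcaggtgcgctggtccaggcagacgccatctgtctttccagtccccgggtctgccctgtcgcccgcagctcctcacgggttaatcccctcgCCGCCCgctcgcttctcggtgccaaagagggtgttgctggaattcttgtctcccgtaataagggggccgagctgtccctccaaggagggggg
The *Tgfb1* window held 5 GC boxes and 75.2% G and C, against a median of 52.4% over 32817 promoter windows of the same length. *Tgfb2*, in contrast, had 53.6% G and C, no GC box, a TATA box that begins 31 bases before the start and 1 SMAD motif. The *Tgfbr1* window had 2 GC boxes and 74.8% G and C. The printed *Ltbp2* stretch had 1 GC box. Over all windows, 32.7% held the GC box, here GGGCGG. The TATA box, read as TATAAA, was in 12.4% of them. The SMAD motif was searched as CAGACA and found in 17.1%. For AP-1 the letters TGANTCA occurred in 6.75%, but in none of the printed windows. The C/EBP motif was TTGCNNAAT, held by 2.12% of all windows and by 0 of the members' windows. A match describes letters only, and binding was not measured.

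In the livers, the members were not called different between genotypes in HFCFD2W, 2 were higher in the knockouts of HFCFD8W+T10D, and 8 of 9 were higher in those of HFCFD12W+T10W. The largest differences lay in *Ltbp2*, *Tgfb2* and *Tgfb3*, which were low in *Cebpa* fl/fl livers. The test was edgeR's quasi-likelihood test within each experiment, with Benjamini-Hochberg adjustment over all genes tested and a call at an adjusted p under 0.05. In HFCFD2W, 0 of 5 members with enough counts passed, 1 at an unadjusted p under 0.05 (*Tgfbr2*) and 0 by DESeq2, where 8.6% of 11068 genes tested were called higher and 8.09% lower. In HFCFD8W+T10D, 2 of 8 tested members passed (*Ltbp2* and *Tgfb1*), where 10.3% of 11990 genes were called higher and 6.85% lower. In HFCFD12W+T10W, 8 of 9 passed, all higher and all but *Tgfbr3*, where 27.4% of 12463 genes were called higher and 23.8% lower. No member was called lower in any experiment. In HFCFD12W+T10W, *Tgfb2* and *Ltbp2* stayed under the filter's minimum count of 10 in every control, and they entered the test through the knockouts. The same held for *Ltbp2* in HFCFD8W+T10D. *Tgfb3* in HFCFD12W+T10W had 7 to 13 counts in controls and 50 to 88 in knockouts. Too few of its controls reached 10 counts, so it also passed the filter through the knockouts. Which members were tested thus depended in part on the group where they were high. A fold change over 2 was also reached by 0, 1 and 5 members, against 1.69%, 4.09% and 14.3% of all genes. The CPM of the genotypes did not overlap, with the knockouts higher, for 0, 1 and 7 members, against 6.33%, 6.01% and 19.6% of all genes. In whole-liver RNA, more cells of a type and more RNA per cell cannot be told apart. Scaling each library to its total alone called 9 members higher in HFCFD12W+T10W, but it moved the median of all genes to a log2 fold change of 0.38 from 0.01 and turned 3411 higher and 2960 lower calls into 7049 and 962. In HFCFD8W+T10D it moved that median to 0.19 and 1231 higher and 821 lower calls to 2023 and 382.

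**Figure D1:**
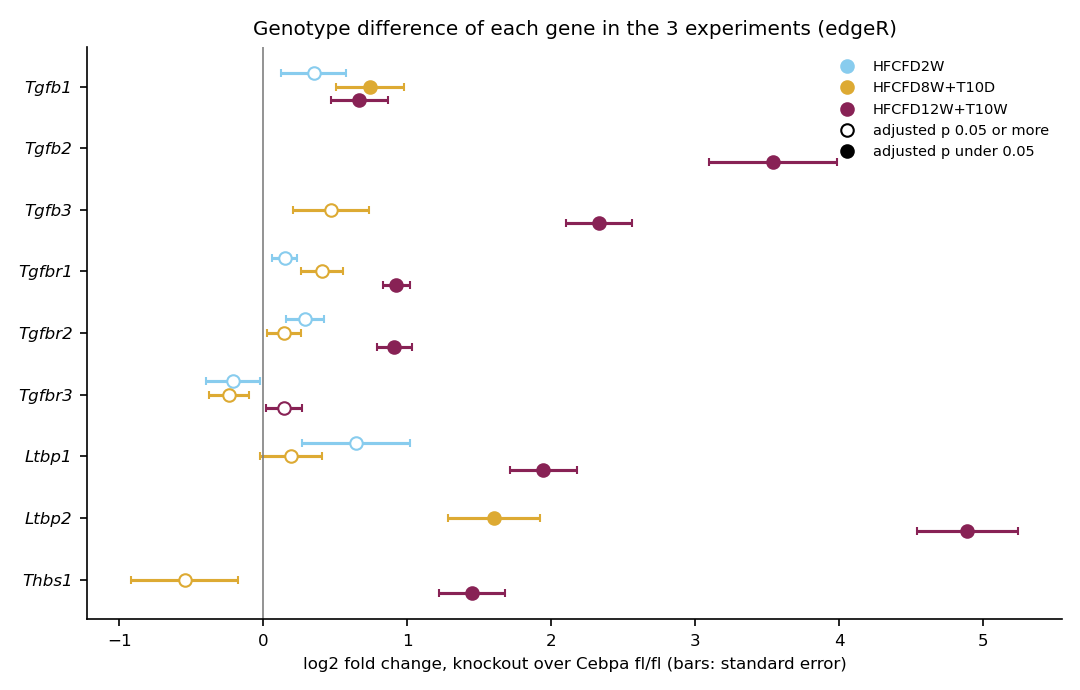
Log2 fold change (x axis) of each gene (rows) between knockout and *Cebpa* fl/fl livers in the 3 experiments, with a standard error derived from the edgeR test statistic as a bar and filled points for an adjusted p under 0.05. Genes under the low-count filter have no point, and the HFCFD12W+T10W points of *Ltbp2* (4.89) and *Tgfb2* (3.54) lie farthest to the right.

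Among the ligands, *Tgfb1* (chr7:25687002-25705077, plus strand), the isoform best known from fibrotic liver, was the most abundant. In HFCFD12W+T10W the *Cebpa* fl/fl mice had 6.42, 7.02, 6.43, 6.31 and 12.7 CPM and the knockouts 13.7, 14.1, 12.2, 9.3 and 11.2 CPM. Control replicate 5 alone lay within the range of the knockouts. *Tgfb1* was higher in the knockouts by a log2 fold change of 0.67 (SE 0.20, adjusted p = 0.0137 in edgeR's quasi-likelihood test), and without control replicate 5 by 0.92. Correcting for transcript length and GC content ended this call (0.44, adjusted p = 0.0633), under which the median of all genes stood at -0.19 and 2522 genes were called higher and 5054 lower. In HFCFD8W+T10D the values were 9.39, 5.56, 6.49, 5.49 and 6.79 CPM in controls and 10.7, 16.9, 11.8, 6.64 and 9.4 CPM in knockouts. Knockout replicate 4 lay among the controls, while the other 4 knockouts lay above them all. The knockouts were higher by a log2 fold change of 0.74 (SE 0.24, adjusted p = 0.0468 in edgeR), and the call was lost in 7 of 10 fits that left out 1 mouse (control replicates 2, 3, 4 and 5 and knockout replicates 1, 2 and 3), with adjusted p up to 0.113 without knockout replicate 2. It was also lost in 4 of 10 alternative analyses. In HFCFD2W *Tgfb1* ran from 3.12 to 5.54 CPM in controls and from 2.81 to 6.62 CPM in knockouts, with a log2 fold change of 0.35 (SE 0.23, adjusted p = 0.319 in edgeR).

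*Tgfb2* (chr1:186622792-186705989, minus strand), the isoform that binds the signaling receptors poorly without betaglycan, was close to the detection limit in most groups. In HFCFD12W+T10W it stood at 0.594, 0.68, 0.115, 0.115 and 0 CPM in controls, which is 0 to 6 counts per library, and at 2.79, 3.79, 4.31, 3.19 and 3.08 CPM in knockouts, 32 to 51 counts. Every knockout lay above every control, with a log2 fold change of 3.54 (SE 0.44, adjusted p = 3.17e-05 in edgeR), a size that depends on how such low counts are treated, since limma on log2 values with a pseudocount of 1 gave 1.78. In the other experiments *Tgfb2* was under the low-count filter, and it ran from 0.445 to 0.933 CPM in controls and 0.337 to 1.02 CPM in knockouts of HFCFD2W and from 0.811 to 1.28 CPM and 0.474 to 1.5 CPM in HFCFD8W+T10D. A two-sided exact permutation test of the mean CPM gave p = 0.175 and p = 0.937 there, unadjusted, where the smallest p the design allows is 0.00794 and 5 such tests were made.

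*Tgfb3* (chr12:86056745-86079041, minus strand), a ligand also linked to tissue repair, was at 0.832, 1.47, 1.49, 0.804 and 0.909 CPM in controls and 4.36, 4.9, 7.43, 5.2 and 5.18 CPM in knockouts of HFCFD12W+T10W. The groups lay well apart, with a log2 fold change of 2.33 (SE 0.23, adjusted p = 5.2e-06 in edgeR). The controls had 7 to 13 counts per library, and the gene passed the low-count filter there through the knockouts. *Tgfb3* in HFCFD8W+T10D ran from 1.04 to 2.85 CPM in controls and from 2.19 to 2.73 CPM in knockouts, and the log2 fold change of 0.47 (SE 0.27) did not pass (adjusted p = 0.256 in edgeR). In HFCFD2W the range was 0.445 to 1.66 CPM in controls and 0.785 to 1.61 CPM in knockouts (p = 0.937, exact permutation test, unadjusted).

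**Figure D2:**
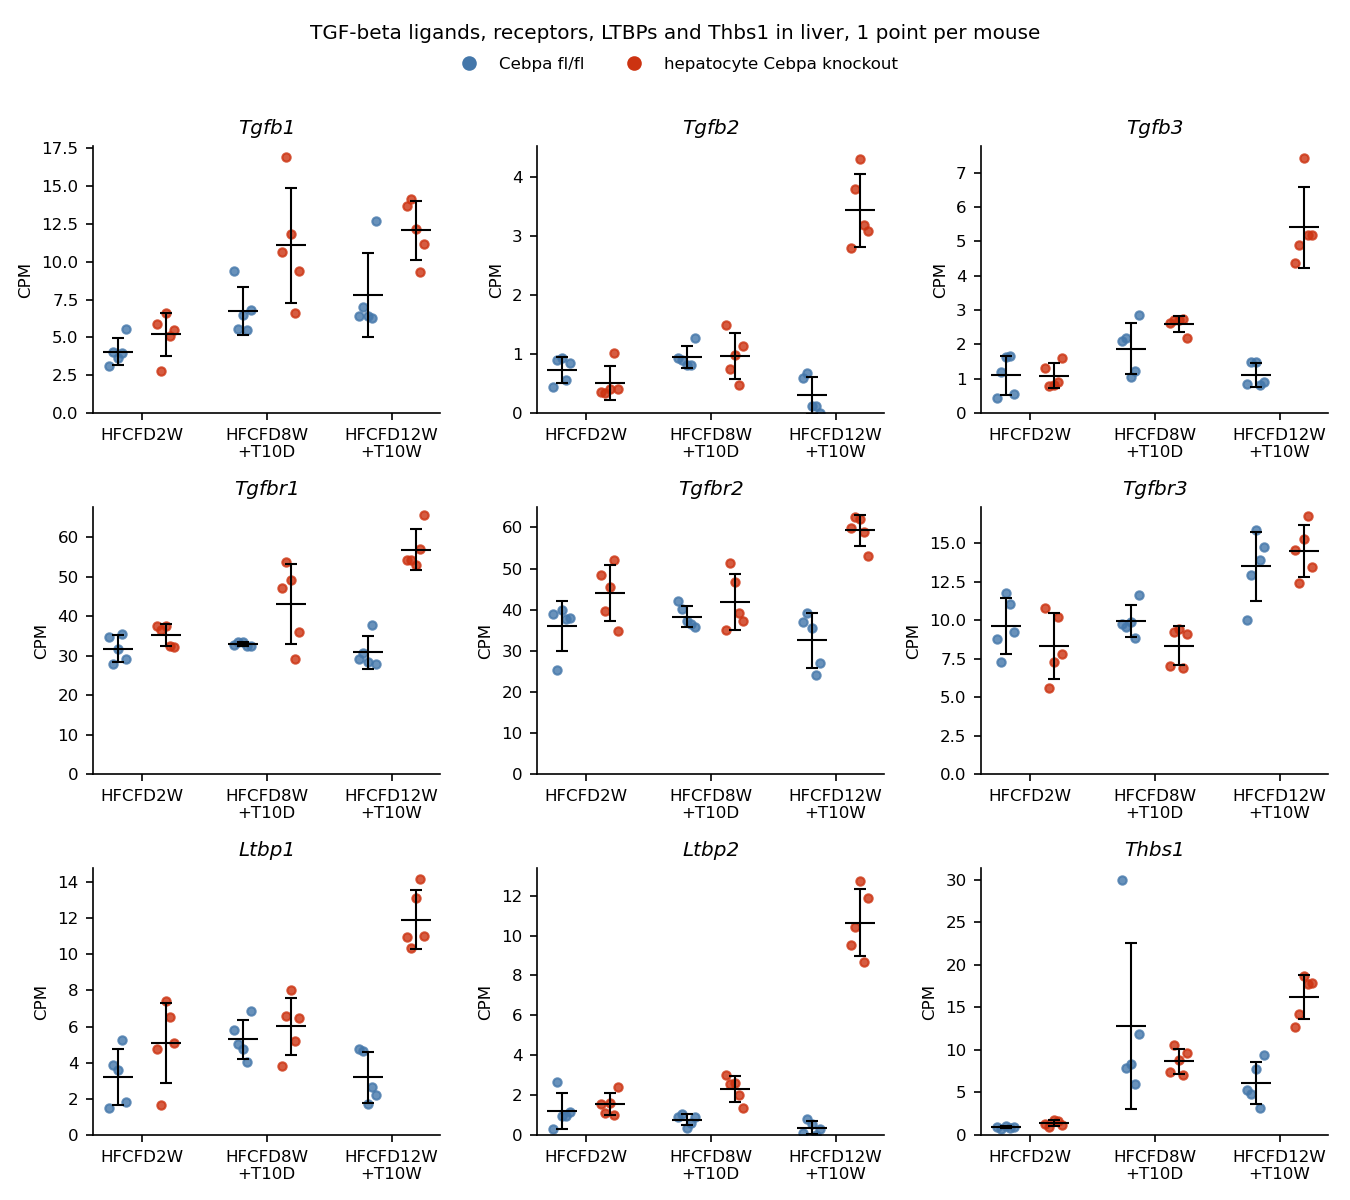
CPM (y axis, from 0, with its own scale in each panel) of the 9 genes in the 3 experiments (x axis), 1 point per mouse, blue for *Cebpa* fl/fl and red for knockouts, with the mean and SD of 5 mice. In HFCFD12W+T10W the red points lie above all blue points for 7 genes, with overlap in *Tgfb1* and *Tgfbr3*, and a single *Thbs1* control of HFCFD8W+T10D lies at 29.9 CPM.

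Of the signaling receptors, the type I receptor *Tgfbr1* (chr4:47353222-47414931, plus strand) stood at 29.2, 30.7, 28.5, 37.9 and 27.8 CPM in controls and 54.3, 54.2, 52.9, 56.9 and 65.7 CPM in knockouts of HFCFD12W+T10W. The lowest knockout lay well above the highest control. For *Tgfbr1* the log2 fold change was 0.93 (SE 0.09, adjusted p = 6.53e-06 in edgeR's quasi-likelihood test). The type II receptor *Tgfbr2* (chr9:116084293-116175360, minus strand) was at 37, 39.3, 35.5, 24 and 27.1 CPM in controls and 59.8, 62.5, 62, 59 and 53.2 CPM in knockouts, again without overlap, and its log2 fold change was 0.91 (SE 0.12, adjusted p = 5.44e-05 in edgeR). Both kept their calls in 10 of 10 alternative analyses and 10 of 10 fits without 1 mouse, and both of the fold changes given here were under 2.

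At the earlier time, in HFCFD8W+T10D, the *Tgfbr1* controls were close together at 32.7, 33.4, 33.5, 32.4 and 32.5 CPM, while the knockouts spread over 47.2, 53.7, 49.2, 29.2 and 35.9 CPM. Knockout replicate 4 lay below all controls and the other 4 above them. The log2 fold change of 0.41 (SE 0.15) did not pass (adjusted p = 0.0761 in edgeR), and it passed without knockout replicate 4 (0.51, adjusted p = 0.00852) and without knockout replicate 5 (0.45, adjusted p = 0.0497), in the joint fit (0.39, adjusted p = 0.0122) and with library totals (0.61, adjusted p = 0.0426). *Tgfbr2* differed by 0.14 (SE 0.12, adjusted p = 0.439 in edgeR), with overlapping groups of 35.8 to 42.1 CPM and 35 to 51.2 CPM. In HFCFD2W the log2 fold change was 0.15 (SE 0.08, adjusted p = 0.25) for *Tgfbr1* and 0.29 (SE 0.13, adjusted p = 0.153) for *Tgfbr2* in edgeR, and both genes had overlapping groups.

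The co-receptor *Tgfbr3* (chr5:107106570-107289629, minus strand) was the member without a call in HFCFD12W+T10W, at 9.98, 12.9, 15.8, 13.9 and 14.7 CPM in controls and 14.6, 12.4, 15.3, 16.8 and 13.4 CPM in knockouts. The groups overlapped over most of their range, and the log2 fold change was 0.15 (SE 0.13, adjusted p = 0.363 in edgeR). This gene depended on the scaling: it passed with library totals alone (0.51, adjusted p = 0.00272), by which the median gene moved to 0.38, and with the GC and length correction the value was -0.15 (adjusted p = 0.279). The deposited TPM (a level per transcript length) of *Tgfbr3*, which are also relative to a library's total, ran from 1.98 to 3.12 in controls and from 3.45 to 4.45 in knockouts. In HFCFD2W and HFCFD8W+T10D its log2 fold changes were -0.21 (SE 0.19, adjusted p = 0.478) and -0.24 (SE 0.14, adjusted p = 0.282) in edgeR.

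*Ltbp1* (chr17:75005568-75392512, plus strand), the binding protein that links latent TGF-β to matrix fibrils, was at 4.75, 4.64, 1.72, 2.64 and 2.22 CPM in controls and 11, 10.3, 13.1, 14.1 and 11 CPM in knockouts of HFCFD12W+T10W. The lowest knockout was above the highest control, and the log2 fold change was 1.95 (SE 0.23, adjusted p = 2.14e-05 in edgeR's quasi-likelihood test). Its ranges in HFCFD8W+T10D, 4.06 to 6.89 CPM and 3.84 to 8.02 CPM, overlapped, with a log2 fold change of 0.19 (SE 0.21, adjusted p = 0.585 in edgeR). In HFCFD2W the mice spread widely within each genotype, from 1.48 to 5.24 CPM in controls and from 1.68 to 7.43 CPM in knockouts (0.64, SE 0.38, adjusted p = 0.267 in edgeR).

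*Ltbp2* (chr12:84783212-84876532, minus strand), a matrix protein of the same family that is known for binding fibrillin rather than latent TGF-β, differed most of all members. In HFCFD12W+T10W it stood at 0.119, 0.793, 0.574, 0 and 0.303 CPM in controls, 0 to 7 counts per library, and at 9.5, 10.4, 12.8, 8.67 and 11.9 CPM in knockouts, 95 to 151 counts. This amounted to a log2 fold change of 4.89 (SE 0.35, adjusted p = 4.56e-07 in edgeR), and 3.11 with limma and a pseudocount of 1. *Ltbp2* was also the member that separated the genotypes in HFCFD8W+T10D, with 0.927, 1.03, 0.348, 0.61 and 0.885 CPM in controls and 3.0, 2.55, 2.6, 2.02 and 1.33 CPM in knockouts. All knockouts lay above all controls there. The log2 fold change was 1.60 (SE 0.32, adjusted p = 0.00536 in edgeR), 0.90 in limma, and the call held in each of 10 alternatives and 10 fits without 1 mouse. In HFCFD2W, *Ltbp2* was under the filter and ran from 0.297 to 2.67 CPM in controls and 1.02 to 2.42 CPM in knockouts (p = 0.468, exact permutation test, unadjusted).

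*Thbs1* (chr2:118111876-118127133, plus strand), stored in platelets and able to activate latent TGF-β1, was at 5.23, 4.87, 7.7, 3.21 and 9.39 CPM in controls and 12.7, 14.2, 18.7, 17.8 and 17.8 CPM in knockouts of HFCFD12W+T10W. No knockout fell within the control range, and the log2 fold change was 1.45 (SE 0.23, adjusted p = 0.000176 in edgeR). In HFCFD8W+T10D the controls were at 29.9, 7.89, 8.34, 5.99 and 11.9 CPM and the knockouts at 7.4, 10.5, 8.78, 7.0 and 9.59 CPM. Control replicate 1 lay far above the other 9 mice. This library also had the highest level of the platelet chemokine *Ppbp*, at 35.3 CPM against 0.305 to 4.23 CPM in the other controls, and its monocyte and neutrophil markers summed to 31.8 CPM against 7.52 to 11.6 CPM. The part of these cells in the *Thbs1* value was not tested. The *Thbs1* log2 fold change was -0.55 (SE 0.37, adjusted p = 0.351 in edgeR) with this mouse and 0.03 (adjusted p = 0.943) without it. In HFCFD2W the low values of 0.742 to 1.05 CPM in controls and 0.898 to 1.76 CPM in knockouts gave p = 0.0238 in the exact permutation test, unadjusted over the 5 tests.

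To ask whether the genotype difference itself changed between experiments, interaction terms were tested in 1 edgeR fit of all 30 libraries with Benjamini-Hochberg adjustment. Against HFCFD2W, the difference of HFCFD12W+T10W was larger for 6 of 9 members, where 13.4% of 12964 genes passed in that direction. By size, these were *Ltbp2* (log2 4.48, SE 0.60), *Tgfb2* (4.04, SE 0.63), *Tgfb3* (2.34, SE 0.44), *Ltbp1* (1.26, SE 0.44), *Tgfbr1* (0.74, SE 0.17) and *Tgfbr2* (0.57, SE 0.19). For *Ltbp1* the call was lost without HFCFD12W+T10W control replicate 3, without HFCFD2W control replicates 2, 3 or 4, or without HFCFD2W knockout replicate 3, with adjusted p up to 0.0932 in edgeR. *Tgfb1* (0.28, SE 0.35, adjusted p = 0.574), *Tgfbr3* (0.32, SE 0.22, adjusted p = 0.281) and *Thbs1* (0.84, SE 0.63, adjusted p = 0.327) did not pass in edgeR.

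Against HFCFD8W+T10D, with which it shares the inducible Cre line, the difference of HFCFD12W+T10W was larger for 7 members, where 4.97% of genes passed in that direction. These were *Tgfb2* (log2 3.45, SE 0.56), *Ltbp2* (3.25, SE 0.60), *Thbs1* (1.97, SE 0.41), *Tgfb3* (1.83, SE 0.39), *Ltbp1* (1.72, SE 0.41), *Tgfbr2* (0.74, SE 0.18) and *Tgfbr1* (0.49, SE 0.16). Without HFCFD8W+T10D control replicate 1, 6 passed in this direction, and the *Thbs1* difference was 1.38 (adjusted p = 0.00431 in edgeR). *Tgfbr1*, at an adjusted p of 0.0499 in edgeR, kept its call in 5 of 30 fits without 1 mouse, and lost it without that replicate (adjusted p = 0.0707) and with no low-count filter (adjusted p = 0.0694). *Tgfb1*, the ligand called in both experiments, differed between them by -0.10 (SE 0.32, adjusted p = 0.89 in edgeR). Between HFCFD8W+T10D and HFCFD2W 0 members passed in edgeR and in DESeq2, where 11.2% of genes did in either direction, and 1 (*Ltbp2*, 1.23, SE 0.56) had an unadjusted p under 0.05 in edgeR. The 3 sets of differences share libraries and are not independent of each other. *Tgfb2* was in the fit of all 30 libraries only through the HFCFD12W+T10W knockouts. *Ltbp2* was in it through knockouts as well. Its controls had 2 to 18 counts per library in HFCFD2W, 3 to 9 in HFCFD8W+T10D and 0 to 7 in HFCFD12W+T10W.

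Levels in *Cebpa* fl/fl livers also differed between the experiments for some members. *Thbs1* was lowest in HFCFD2W, and it was higher by a log2 difference of 3.80 (SE 0.40, adjusted p = 3.17e-08) in HFCFD8W+T10D and of 2.74 (SE 0.43, adjusted p = 1.5e-05) in HFCFD12W+T10W, in the joint edgeR fit. Without HFCFD8W+T10D control replicate 1, the first of these was 3.22 (adjusted p = 7e-09 in edgeR). *Thbs1* had 5 to 9 counts per library in HFCFD2W controls, so the sizes of these differences are less certain than their direction. *Tgfb1* was higher than in HFCFD2W by 0.73 (SE 0.25, adjusted p = 0.0204) in HFCFD8W+T10D and by 0.95 (SE 0.25, adjusted p = 0.00377) in HFCFD12W+T10W in edgeR. The first of these calls was lost without HFCFD8W+T10D control replicate 1 (0.59, adjusted p = 0.0748) or HFCFD2W control replicate 1 (0.66, adjusted p = 0.0547). In the controls, 2 of 9 members thus passed between HFCFD8W+T10D and HFCFD2W, where 22.2% of genes were called higher and 21.5% lower.

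Between HFCFD12W+T10W and HFCFD2W controls, 3 members were higher (*Tgfb1*, *Thbs1* and *Tgfbr3*) and 2 lower (*Tgfb2* and *Ltbp2*), where 19.8% and 19.4% of genes were so called. *Tgfbr3* was higher by 0.48 (SE 0.15, adjusted p = 0.0141 in edgeR) and *Ltbp2* lower, at -1.69 (SE 0.51, adjusted p = 0.00915), and both calls were lost without HFCFD2W control replicate 2 (adjusted p = 0.0509 and 0.0682). *Tgfb2* was lower, at -1.29 (SE 0.50, adjusted p = 0.0382 in edgeR), a call lost without any 1 of HFCFD12W+T10W control replicates 3, 4 and 5 or HFCFD2W control replicates 2, 3 and 5, with adjusted p up to 0.115. It was also lost with no low-count filter (adjusted p = 0.0703) and with library totals (-1.06, adjusted p = 0.101), in 2 of 5 alternatives. *Tgfb2* had 0 to 6 counts per library in HFCFD12W+T10W controls, 3 to 8 in HFCFD2W controls and 7 to 13 in HFCFD8W+T10D controls. Only the HFCFD12W+T10W knockouts brought it into the joint fit, and its control differences rest on such low counts. *Ltbp2* had 0 to 7 counts in HFCFD12W+T10W controls and 2 to 18 in HFCFD2W controls, and it too entered the joint fit through knockouts. Between HFCFD12W+T10W and HFCFD8W+T10D, *Tgfb2* (-1.65, SE 0.46, adjusted p = 0.0185) and *Thbs1* (-1.06, SE 0.30, adjusted p = 0.019) were lower in edgeR, where 5.12% of genes were. Without HFCFD8W+T10D control replicate 1 the *Thbs1* difference was -0.48 (adjusted p = 0.175), and without HFCFD12W+T10W control replicates 2 or 4 the adjusted p was 0.0530 and 0.0548. The *Tgfb2* call was lost without HFCFD12W+T10W control replicate 3 (adjusted p = 0.0576) or HFCFD8W+T10D control replicate 5 (adjusted p = 0.0506). Diet time and batch differ together in these comparisons, and so does tamoxifen.

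Levels of different genes were compared per transcript length, in the deposited TPM. By their means, both signaling receptors held the first places in all 6 groups, and their ranges overlapped in each. *Tgfb1* was the third by its mean in every group. Its range overlapped that of *Tgfbr2* in HFCFD8W+T10D knockouts and in HFCFD12W+T10W controls. In the groups of HFCFD2W and HFCFD8W+T10D, it also overlapped the range of the next gene below. In HFCFD2W controls the means were 5.42 TPM for *Tgfbr1*, 5.39 TPM for *Tgfbr2* and 1.98 TPM for *Tgfb1*, followed by *Tgfbr3* at 1.5 TPM, *Ltbp1* at 0.746 TPM and the other 4 between 0.192 and 0.416 TPM. *Thbs1* was last there, at 0.192 TPM, and its range overlapped that of its neighbour *Tgfb2*. In HFCFD12W+T10W controls *Tgfb2* (0.088 TPM) and *Ltbp2* (0.146 TPM) came last, with overlapping ranges. In the knockouts of that experiment *Tgfbr1* (16.6 ± 1.98 TPM, SD, n = 5) and *Tgfbr2* (15.8 ± 1.03 TPM) led, *Tgfb1* followed at 10.2 ± 1.14 TPM with no overlap on either side, and *Thbs1* (4.57), *Ltbp1* (4.27), *Tgfbr3* (3.9), *Ltbp2* (3.06) and *Tgfb3* (2.71) formed a run of neighbours whose ranges overlapped. *Tgfb2* was last, at 1.19 ± 0.173 TPM, below every *Tgfb3* value.

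The ligand shares are set beside each other for HFCFD12W+T10W. Of the summed TPM of the 3 ligands, *Tgfb1* held 85.7% to 95.8% in controls and 65.9% to 76.9% in knockouts. *Tgfb3* held 4.19% to 12.6% and 15.2% to 24.9%, and *Tgfb2* held 0% to 4.82% and 7.51% to 9.27%. None of these ranges overlapped, and the sum itself ran from 4.07 to 8.36 TPM in controls and from 12.6 to 15.8 TPM in knockouts. TPM are not scaled for composition, and the median TMM factor was 0.98 in these controls and 1.31 in these knockouts. The sums therefore stand farther apart in TPM than they would with that scaling, while the shares do not depend on it. The transcript length used per mouse for *Tgfb2* also varied, from 1613 to 4900 bases in these controls. The *Tgfb1* share averaged 79.7% in controls and 82.8% in knockouts of HFCFD8W+T10D, and 76.2% and 85.5% in HFCFD2W, with overlapping ranges. These shares are given as a description, without a test.

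**Figure D3:**
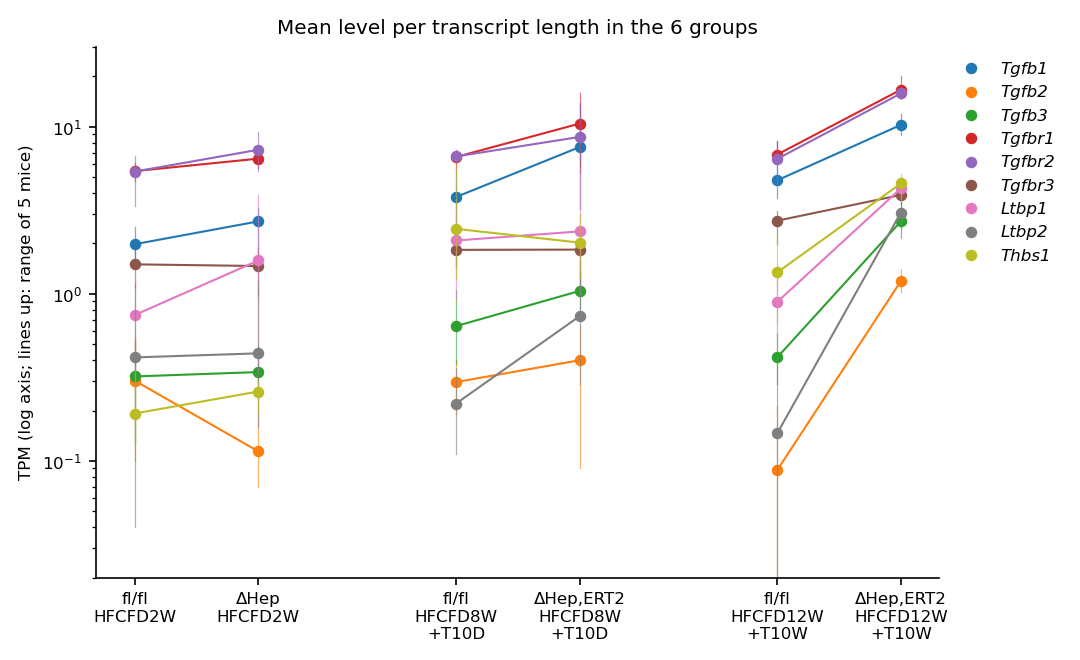
Mean deposited TPM (y axis, log scale) of the 9 genes in the 6 groups (x axis), with thin vertical lines for the range of 5 mice (cut at 0.02 TPM where a mouse is lower) and lines joining the genotypes of 1 experiment. The means of *Tgfbr1* and *Tgfbr2* lie on top in every group, and in HFCFD12W+T10W that of *Tgfb2* moves from 0.088 to 1.19 TPM and that of *Ltbp2* from 0.146 to 3.06 TPM. Unlike CPM, these values are not scaled for composition.

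Markers of several liver cell types moved with the members in HFCFD12W+T10W. Of all genes, 27.4% were called higher there and 23.8% lower, and the counts of called markers are to be read beside these shares. Some markers that were low in controls entered the test through the knockouts, such as *Cftr*, with at most 1 count in any control. Summed over 8 stellate cell markers, the controls ran from 139.5 to 169 CPM and the knockouts from 265 to 339.8 CPM, with 7 of the 8 called higher. The 6 portal fibroblast and smooth muscle markers ran from 5.11 to 8.18 CPM in controls and from 34.2 to 55.6 CPM in knockouts (4 of 5 tested were called higher), and the 6 cholangiocyte markers from 9.27 to 12.2 CPM and from 43.9 to 72.8 CPM (6 of 6 higher). All of these groups were without overlap. Monocyte and neutrophil markers ran from 6.91 to 17.3 CPM in controls and from 33.6 to 95.3 CPM in knockouts (6 of 6 higher), while macrophage markers, from 262 to 816 CPM and from 595 to 816 CPM, overlapped in sum, although 4 of 8 were called higher (*Cd68* 1.37, *Adgre1* 1.10, *Csf1r* 0.73 and *Vsig4* 0.55 on the log2 scale) and 2 lower (*Timd4* -2.72 and *Marco* -2.35). The 8 sinusoidal endothelium markers also overlapped, from 166 to 304 CPM in controls and from 196 to 224 CPM in knockouts. Of these, 2 were called lower, near the share of all genes, and no result was read from that count. For hepatocytes, 4 of 6 markers were called lower, with sums of 90650 to 111900 CPM and 42670 to 50350 CPM. Platelet markers ran from 3.4 to 5.86 CPM and from 4.69 to 8.39 CPM, overlapping, with 1 of 2 tested higher. The 7 lymphocyte markers summed to 3.63 to 4.94 CPM in controls and 8.72 to 17.3 CPM in knockouts (3 of 4 tested were higher), and the 5 mesothelium markers to 2.07 to 15.3 CPM and 10.8 to 96.3 CPM (1 of 3 higher), and *Krt14* was the one marker of these lists at 0 in all mice of a group, the controls. The part of these cell types in the values of the 9 genes was not tested.

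In HFCFD8W+T10D, where *Ltbp2* and *Tgfb1* were called, the stellate cell sum ran from 159.7 to 197 CPM in controls and from 172 to 254 CPM in knockouts, with 0 of 8 markers called in edgeR (1 at an unadjusted p under 0.05), and that of portal fibroblasts and smooth muscle from 9.35 to 16.2 CPM and from 9.84 to 18.3 CPM. Both sums overlapped, but of the portal list *Eln*, which encodes elastin, was called higher without overlap (log2 1.47, adjusted p = 0.0181 in edgeR). The cholangiocyte sum ran from 12.9 to 20 CPM in controls and from 18.3 to 24.2 CPM in knockouts, with 2 of 5 tested called higher (*Epcam* 2.57 and *Sox9* 1.00 on the log2 scale). Macrophage markers ran from 562 to 1073 CPM and from 931 to 1894 CPM, with 4 of 8 called higher, and monocyte and neutrophil markers from 7.52 to 31.8 CPM and from 14.1 to 36.3 CPM, with 4 of 6 higher. Without control replicate 1, the monocyte and neutrophil sum of the controls ran from 7.52 to 11.6 CPM, below all knockouts. The part of these cells in the *Tgfb1* and *Ltbp2* values was not tested. The hepatocyte sum ran from 105100 to 131200 CPM and from 49470 to 103100 CPM, with 4 of 6 lower. Of all genes, 10.3% were called higher and 6.85% lower in this experiment. In HFCFD2W, where no member was called, 1 of 8 stellate cell and 2 of 8 macrophage markers were called higher, beside 8.6% of all genes.

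**Figure D4:**
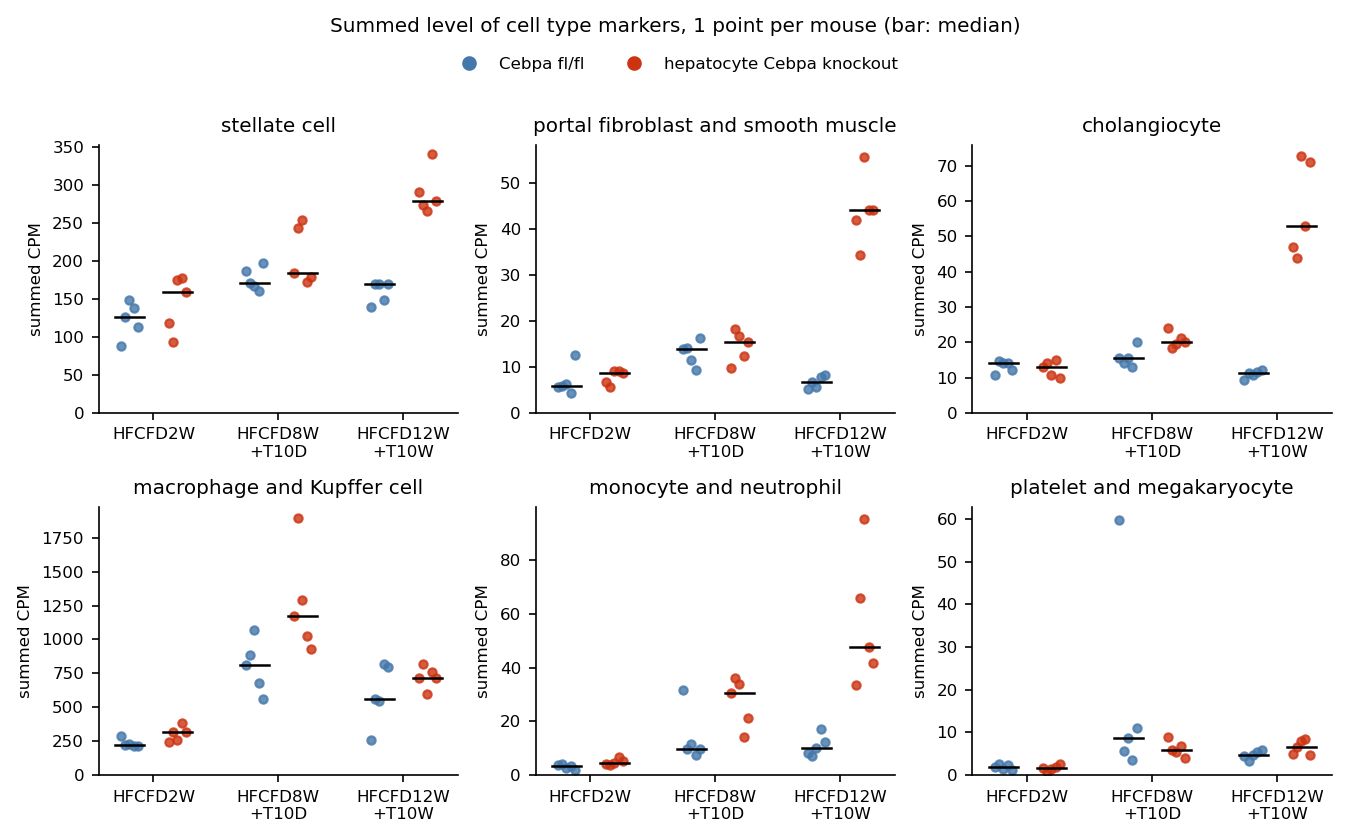
Summed CPM (y axis, from 0) of 6 lists of cell type markers in the 3 experiments (x axis), 1 point per mouse, blue for *Cebpa* fl/fl and red for knockouts, with the median as a bar. In HFCFD12W+T10W the red points of the stellate cell, portal fibroblast and cholangiocyte lists lie above all blue points, and 1 control of HFCFD8W+T10D stands at 59.9 CPM in the platelet list.

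Other genes of the pathway were read from 5 lists, and their paired CPM values are the control mean followed by the knockout mean. As with the members, some list genes that were low in controls entered the test through the knockouts. In HFCFD12W+T10W these included *Fbn2*, *Itgb6*, *Plat*, *Tgif2*, *Tnc* and *Lox*. The numbers tested, the higher calls and the medians of the lists depend in part on that. Of 23 genes of the latent complex and its activation (integrins, fibrillins, proteases and anchoring proteins), HFCFD2W had 1 higher call among 18 tested, HFCFD8W+T10D had 5 among 19, and HFCFD12W+T10W had 18 higher and 2 lower among 23. Of all genes, 8.6%, 10.3% and 27.4% were called higher in the 3 experiments, and 8.09%, 6.85% and 23.8% lower. The median log2 fold change of the list was 0.20, 0.52 and 0.94, beside 0.01 over all genes in each experiment. The membrane protease *Mmp14* was the gene called in HFCFD2W (11.7 to 16.5 CPM, log2 0.49, SE 0.15), and it was higher again in HFCFD8W+T10D (21.7 to 40.4 CPM, 0.91, SE 0.18). The gelatinase *Mmp2* (5.04 to 12.6 CPM, 1.35, SE 0.21), the urokinase *Plau* (3.2 to 5.92 CPM, 0.90, SE 0.26) and the procollagen protease *Bmp1* (94.7 to 125 CPM, 0.41, SE 0.10) were higher there too. In HFCFD12W+T10W the fibrillin *Fbn2* and the integrin subunit *Itgb6*, which helps to release active TGF-β, had 0 counts in all controls, and against a floor of 3 counts per library they were at least 7.91-fold and at least 5.87-fold higher in knockouts. The tissue plasminogen activator *Plat* went from 0.558 to 6.65 CPM (3.58, SE 0.21), whereas *Plg*, the hepatocyte-made plasminogen that it cleaves, fell from 2326 to 1292 CPM (-0.80, SE 0.11). Setting both genes at the floor to their bounds left the median at 0.94.

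Accessory and related receptors were called in both directions. For comparison, HFCFD2W had 8.6% of all genes called higher and 8.09% lower. HFCFD8W+T10D had 10.3% higher and 6.85% lower, while for HFCFD12W+T10W the shares were 27.4% and 23.8%. With so few genes, no result about the list was read from its counts. Of 9 tested, HFCFD2W had 1 higher and 1 lower, HFCFD8W+T10D had 1 higher and 3 lower, and HFCFD12W+T10W had 2 higher and 4 lower, with median log2 fold changes of -0.01, -0.26 and -0.05. The co-receptor *Nrp1* was higher in HFCFD2W (79.3 to 117 CPM, log2 0.57, SE 0.18) and lower in HFCFD8W+T10D (64.5 to 45.4 CPM, -0.49, SE 0.13). The type I receptor *Acvr1* was lower in HFCFD2W (13.5 to 9.53 CPM, -0.51, SE 0.16). *Acvrl1*, a type I receptor of endothelial cells, was higher in HFCFD8W+T10D (5.11 to 8.38 CPM, 0.74, SE 0.23) and in HFCFD12W+T10W (3.1 to 7.3 CPM, 1.27, SE 0.18). The decoy receptor *Bambi* was higher in HFCFD12W+T10W (2.37 to 4.43 CPM, 0.94, SE 0.24). *Zfyve9*, which anchors SMADs at the receptor, and the receptor-associated *Tgfbrap1* fell in both later experiments, *Zfyve9* from 28.6 to 22.2 CPM and from 36.5 to 22.1 CPM and *Tgfbrap1* from 42.2 to 33.2 CPM and from 42.4 to 34.4 CPM.

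Of the SMADs and their regulators, 2 were higher and 2 lower among 14 tested in HFCFD2W. HFCFD8W+T10D had 1 of each among 14, and HFCFD12W+T10W had 7 higher and 2 lower among 15, with median log2 fold changes of -0.01, 0.07 and 0.20. Set beside the shares of all genes given above, no result about this list was read from its counts either. *Ppm1a*, a SMAD phosphatase, was lower in all 3 experiments (123 to 98.8 CPM, 118 to 86.6 CPM and 134 to 77.8 CPM). *Fkbp1a*, which binds the type I receptor, was higher in all 3 (36.4 to 45.9 CPM, 41.5 to 59.6 CPM and 35.5 to 61.3 CPM). In HFCFD2W the SMAD repressor *Skil* was higher (7.67 to 14.8 CPM, log2 0.95, SE 0.18) and the inhibitory *Smad6* lower (2.47 to 0.832 CPM, -1.53, SE 0.40). In HFCFD12W+T10W the feedback inhibitor *Pmepa1* went from 1.43 to 9.96 CPM (2.83, SE 0.19) and the corepressor *Tgif2* from 0.441 to 1.72 CPM (1.96, SE 0.34).

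The extracellular binders numbered 6 with enough counts, of which HFCFD2W had 1 higher, HFCFD8W+T10D had 0 and HFCFD12W+T10W had 5. In HFCFD8W+T10D 2 had an unadjusted p under 0.05 in edgeR, and 0 were called by DESeq2. None was called lower by edgeR in any experiment, and the median log2 fold changes were 0.22, 0.13 and 1.41. Of all genes, 8.6%, 10.3% and 27.4% were called higher in the 3 experiments. Follistatin, *Fst*, which binds activins, was the gene called in HFCFD2W (1.02 to 3.09 CPM, log2 1.58, SE 0.31). In HFCFD12W+T10W *Fstl1* went from 5.88 to 40.9 CPM (2.83, SE 0.14), and the small proteoglycans *Fmod* from 1.72 to 9.39 CPM, *Bgn* from 112 to 308 CPM and *Dcn* from 188 to 339.7 CPM.

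Textbook targets of TGF-β had 1 higher and 1 lower call among 16 tested in HFCFD2W. Of all genes, 8.6% were called higher there and 8.09% lower, and no result about the list was read from these counts. HFCFD8W+T10D had 3 higher and 1 lower among 18, beside 10.3% and 6.85% of all genes. HFCFD12W+T10W had 13 higher and 2 lower among 19, beside 27.4% and 23.8% of all genes. The median log2 fold changes of the list were 0.14, 0.41 and 1.84. In HFCFD2W the cell cycle inhibitor *Cdkn1a* was higher (1.44 to 9.63 CPM, log2 2.72, SE 0.40) and *Ccn1*, a matricellular protein, lower (6.34 to 3.25 CPM, -0.95, SE 0.18). In HFCFD8W+T10D, fibrillar collagens *Col1a1* (33.8 to 83.7 CPM, 1.33, SE 0.37) and *Col3a1* (107 to 241 CPM, 1.18, SE 0.32) were higher. *Nox4*, an oxidase that hepatocytes also express, fell in both later experiments, from 55.6 to 19.6 CPM and from 70.5 to 27.4 CPM. In HFCFD12W+T10W *Col1a1* went from 13.9 to 158 CPM (3.55, SE 0.26) and tenascin-C, *Tnc*, from 0.580 to 7.74 CPM (3.74, SE 0.25). The collagen crosslinking enzyme *Lox*, with at most 3 counts in any control, was at least 12-fold higher. All calls of these lists are those of edgeR's quasi-likelihood test at an adjusted p under 0.05.

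**Figure D5:**
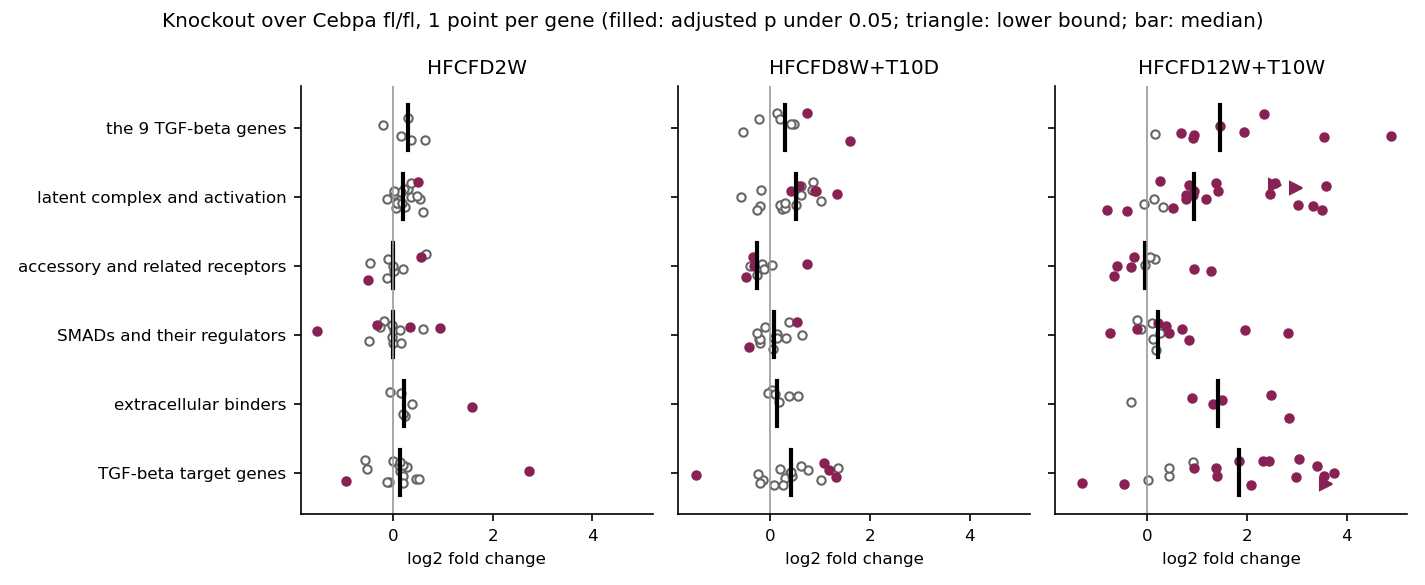
Log2 fold change (x axis) of each tested gene of the 9 TGF-beta genes and 5 further pathway lists (rows) in the 3 experiments (panels), with filled points for an adjusted p under 0.05, triangles for lower bounds of genes at the floor in controls, and bars for medians. The medians of HFCFD12W+T10W run from -0.05 for accessory receptors to 1.84 for target genes.

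Over the 6 group means of log2 CPM, the genes with the profile nearest to each member were found among 12963 other genes by the root mean square difference of centred profiles. The nearest to *Tgfb1* was *BC035044* (0.0517), followed by *Adrb1* (0.0562), and the nearest to *Tgfb3* were *Plp2* (0.0494) and *Samd14* (0.0771). For the receptors, the nearest were *Cd2ap* (0.0625) and *Coro1c* (0.0644) to *Tgfbr1*, *Brms1l* (0.0696) and *Meis1* (0.0699) to *Tgfbr2*, and *Arhgef40* (0.0769) and *Nt5c2* (0.0973) to *Tgfbr3*. *Itga8* (0.0976), an integrin subunit, and *Il17rd* (0.105) lay nearest to *Ltbp1*. The members with the largest swings had more distant neighbours, with *Megf6* (0.266) and *Ppp1r26* (0.285) for *Tgfb2*, *Col15a1* (0.291) and *Cftr* (0.331) for *Ltbp2*, and *Plod2* (0.317) and *March1* (0.332) for *Thbs1*. These are likenesses over 6 points that share libraries, depth and batches.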

How the data were processed

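Per the labels, the liver of each of 30 mice gave 1 stranded TruSeq mRNA library. The submitters' processing notes name Trimmomatic 0.36, STAR 2.5.1, Picard 1.84, RSEM 1.2.22, DESeq2 and the build mm10. The authors deposited RSEM expected counts per gene and library, not normalized, with TPM beside them, and the same expected counts as 1 table, which differed from the library files by 0. All 55450 gene identifiers are those of GENCODE M21. A further deposited table holds a signal for 15010 genes, in which the counts of each library are divided by 1 factor. RSEM splits reads that fit several genes or transcripts. A table of FPKM was not used.

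Expected counts, of which 3.25% were not whole, were rounded. With edgeR 4.0.16 (R 4.3.3), genes passing filterByExpr (minimum count 10) by genotype were scaled by TMM, and genotypes were tested in each experiment with the quasi-likelihood method and Benjamini-Hochberg adjustment. Differences between experiments were contrasts of 1 fit of all libraries by group, over 12964 genes. Each SE is derived from the test, as the absolute log2 value divided by the square root of its F statistic. CPM per mouse use TMM over all libraries, and log2 CPM a prior count of 2. Members under the filter had a two-sided exact permutation test over 252 arrangements. The floor was 3 counts in each library of a group. Simulated counts were used to check these steps.

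The members, lists, tests and alternatives were chosen with earlier results of these data known. All members are named, and of each other list, in each experiment, the 3 passing genes with the largest and the 1 with the lowest log2 fold change, the 2 genes with the nearest profile to each member, and the most abundant markers. *Ppbp* was chosen after its values were seen, and 1 gene that the rule names is not reported here. The alternatives were DESeq2 1.42.0, upper quartile scaling, no filter, robust quasi-likelihood, a joint fit, the replicate number as a block, equal depth, a GC and length correction by splines with 4 degrees of freedom, limma 3.58.1 on the deposited signal with a pseudocount of 1, other thresholds and leaving out each mouse. Scaling by library totals was added after seeing the data.

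Promoter windows are RefSeq's. Same-number mice were compared over 2000 genes to see whether replicate numbers pair them.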

Additional observations from a re-analysis of the deposited data

Results flagged for a closer look

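In 7 of 54 groups of 5 mice a single value stood far from the other 4 by Dixon's test, which chance does in about 1 of 20 groups. In HFCFD8W+T10D these were *Thbs1* in control replicate 1 (29.9 CPM, the others 5.99 to 11.9 CPM), *Tgfb2* in control replicate 5 (1.28 CPM, the others 0.811 to 0.927 CPM) and *Tgfb3* in knockout replicate 5 (2.19 CPM, the others 2.62 to 2.73 CPM). In HFCFD12W+T10W they were *Tgfb1* in control replicate 5 (12.7 CPM, the others 6.31 to 7.02 CPM) and *Tgfb3* in knockout replicate 3 (7.43 CPM, the others 4.36 to 5.2 CPM). In HFCFD2W they were *Tgfb2* in knockout replicate 5 (1.02 CPM, the others 0.337 to 0.406 CPM) and *Tgfbr2* in control replicate 2 (25.4 CPM, the others 37.8 to 39.9 CPM).

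In 13 cases the genotype difference itself differed between experiments by an interaction term in edgeR, and each was larger in HFCFD12W+T10W. Against HFCFD2W the log2 values were 4.04 for *Tgfb2*, 2.34 for *Tgfb3*, 0.74 for *Tgfbr1*, 0.57 for *Tgfbr2*, 1.26 for *Ltbp1* and 4.48 for *Ltbp2*. Against HFCFD8W+T10D they were 3.45 for *Tgfb2*, 1.83 for *Tgfb3*, 0.49 for *Tgfbr1*, 0.74 for *Tgfbr2*, 1.72 for *Ltbp1*, 3.25 for *Ltbp2* and 1.97 for *Thbs1*, which was 1.38 without HFCFD8W+T10D control replicate 1. The experiments are separate batches, so these differences cannot be told apart from batch, time on diet and length of *Cebpa* loss.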

How the results depend on the processing

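The count of called members in HFCFD2W was 0 in every alternative run, and that of HFCFD12W+T10W was 8 or 9, except for 7 with the GC and length correction, 7 at an adjusted p under 0.01 and 5 where a fold change over 2 was required. In HFCFD8W+T10D the 2 calls became 1 with the replicate block, equal depth, the GC and length correction, limma, an adjusted p under 0.01 or a fold change over 2, and ran from 1 to 3 without single mice, the call of *Ltbp2* being the one that held. The replicate number entered as a block left 0, 1 and 8 members passing in the 3 experiments, and over all genes of HFCFD2W 374 were higher and 350 lower instead of 952 and 895. Same-number mice correlated by -0.227 to 0.159, so the numbers were not taken to pair mice. Between controls, the 2 calls of HFCFD8W+T10D against HFCFD2W became 4 with DESeq2, upper quartile scaling or library totals, 1 at an adjusted p under 0.01, and 1 to 4 without single mice. The 5 calls of HFCFD12W+T10W against HFCFD2W became 3 at 0.01 and 2 to 5 without single mice, and the 2 against HFCFD8W+T10D became 0 at 0.01 and 1 to 3. At an adjusted p under 0.01 the list counts fell to 0 for the latent complex and 0 for accessory receptors in HFCFD2W, to 2 for SMADs there, and in HFCFD8W+T10D to 3, 0 and 1 for these lists and 1 for target genes. DESeq2 called 9 latent complex genes and 7 target genes in HFCFD8W+T10D, and upper quartile scaling 7 target genes. Upper quartile scaling gave 3936 higher and 2284 lower calls in HFCFD12W+T10W. The sign turned for *Thbs1* in HFCFD8W+T10D without control replicate 1 (0.0297, the lowest of the fits without 1 mouse being -0.735), for *Tgfbr3* in HFCFD12W+T10W with the GC and length correction (-0.15), and, on the log2 scale of the exact permutation test, for *Tgfb3* in HFCFD2W (0.0661, p = 0.865) and *Tgfb2* in HFCFD8W+T10D (-0.0293, p = 0.905). Of single-gene values within the experiments, 424 kept direction and side of the threshold, 12 lost it, 5 gained it and 4 turned. Differences between experiments are not part of these numbers, and several of their calls were less stable. The *Tgfbr1* interaction of HFCFD12W+T10W against HFCFD8W+T10D, for example, kept its call in 5 of 30 fits without 1 mouse. The causes were not tested. At these depths, *Tgfb2* and *Ltbp2* had at most 7 counts in HFCFD12W+T10W controls, so their fold changes are less certain than their direction.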
